A study of Mus musculus with 8 samples.

Results

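Keratin genes were taken as the protein-coding genes whose symbol is Krt followed by a number and, for some, a letter. Keratin-associated proteins and pseudogenes were left out, and 1 symbol of the form, Krt74, was left out as a transcribed pseudogene. This gave 53 genes of the 54532 in the table, 27 on chromosome 11 and 26 on chromosome 15. By family, 27 were type I, 25 were type II and Krt222 was put in neither. Total RNA came from naive, untreated corneas, 4 of BALB/cN mice (albino) and 4 of C57BL/6N mice (pigmented), all male and with no transgene or deletion named. The age of these mice and whether each cornea came from a separate animal are not given in the sources used here, so p-values measure only the spread between these corneas. How the corneas were cut for sequencing is not given in the sources used here; for its PCR measurements the study took the central part, without the limbus. RNA of many cells was pooled, so fewer cells of a type and less RNA per cell cannot be told apart.

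Keratins are the intermediate filament proteins of epithelia. A filament is built from pairs of 1 type I and 1 type II chain, and each epithelium and each layer within it uses its own pairs. Krt12 is the type I keratin of the corneal epithelium, Krt5 and Krt14 mark the basal layer of stratified epithelia, Krt15 is a basal keratin also known from the limbus and the hair follicle bulge, Krt4 and Krt13 pair in wet mucosal epithelia such as the conjunctiva, and Krt8 and Krt18 are the pair of simple epithelia.

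The deposited values were rlog values, which are on a log2 scale, normalized for library size, and drawn towards the mean of the gene where few reads were counted. Read counts were recovered from them by inverting that transformation, and "reads" below are such recovered counts, not scaled to depth unless called normalized. Depth was 36.7 to 41.2 M reads in BALB/cN and 29.7 to 37.0 M in C57BL/6N. Within C57BL/6N, corneas 1 and 2 stood apart from corneas 3 and 4. The mean rlog value of 10 stromal keratocyte markers was 13.97 and 13.99 in the first pair and 11.57 and 11.56 in the second, and in BALB/cN it was 12.02 in cornea 2 and 13.31 to 13.92 in the others. None of the 10 was called, and none had an unadjusted p-value under 0.05. Calls were therefore also made with each C57BL/6N pair alone. The mean of 8 lens markers was 6.69 and 5.99 in BALB/cN corneas 1 and 4 and 4.12 to 4.74 in the other 6 corneas, and limma called none of them (1 had an unadjusted p-value under 0.05). Krt12 and Krt5, both members of the set, were the highest keratins of every group per length. The mean rlog value of 10 non-keratin markers of corneal epithelium was 15.20 to 15.50. No other tissue was measured, so these values do not test the corneal label.

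Promoters are shown for the corneal keratin Krt12 and for 3 keratins that differed between the strains, of which Krt90 and Krt75 are neighbours that differed in opposite directions. They run from 250 bases before to 50 bases after a start of the gene in RefSeq on GRCm38.p6, where 36 of the 53 genes had an entry. This is the reference genome. For the genes shown, the RefSeq start was also the annotated gene start. For some others it was not, with a distance of 1518 bases for Krt14, 1360 for Krt7 and 140 for Krt8. Those windows are part of the keratin shares given below. No BALB/cN sequence or variant was read, so the letters are not compared between the strains. Capitals mark the TATA box letters TATAAA, the related form ATAAAA that can overlap with it, and the pattern TGANTCA. Each was searched for on both strands.
Krt12, chr11:99422210-99422509, minus strand: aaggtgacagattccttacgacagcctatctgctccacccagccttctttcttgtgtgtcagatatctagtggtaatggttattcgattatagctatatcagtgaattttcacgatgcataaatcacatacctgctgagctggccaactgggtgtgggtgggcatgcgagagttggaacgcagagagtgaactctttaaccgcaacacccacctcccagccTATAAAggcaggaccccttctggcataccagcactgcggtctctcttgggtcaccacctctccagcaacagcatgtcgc
Krt13, chr11:100121517-100121816, minus strand: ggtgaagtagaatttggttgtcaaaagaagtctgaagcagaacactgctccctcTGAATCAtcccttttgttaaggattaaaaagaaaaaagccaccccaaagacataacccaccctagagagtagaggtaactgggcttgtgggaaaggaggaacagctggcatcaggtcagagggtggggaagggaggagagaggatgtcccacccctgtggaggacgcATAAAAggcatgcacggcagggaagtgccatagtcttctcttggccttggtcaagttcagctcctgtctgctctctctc
Krt75, chr15:101573855-101574154, minus strand: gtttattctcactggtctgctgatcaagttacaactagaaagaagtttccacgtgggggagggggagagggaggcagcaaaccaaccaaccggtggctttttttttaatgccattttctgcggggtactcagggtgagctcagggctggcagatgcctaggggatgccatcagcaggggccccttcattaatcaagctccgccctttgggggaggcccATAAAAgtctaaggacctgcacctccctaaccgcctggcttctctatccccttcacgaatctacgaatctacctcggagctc
Krt90, chr15:101562901-101563200, minus strand: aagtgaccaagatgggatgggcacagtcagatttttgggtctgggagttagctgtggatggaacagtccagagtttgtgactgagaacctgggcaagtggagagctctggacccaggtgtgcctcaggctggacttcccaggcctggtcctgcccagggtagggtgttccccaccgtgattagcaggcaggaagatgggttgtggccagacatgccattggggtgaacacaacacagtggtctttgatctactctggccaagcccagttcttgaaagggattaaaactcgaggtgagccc
TATAAA was found in 52.8% of the keratin promoters and 14.2% of all 27025 promoters, and ATAAAA in 61.1% and 19.1%. Krt12 had TATAAA 29 bases before its start, Krt13 had ATAAAA at 29 bases and Krt75 at 32 bases before theirs, and the Krt90 window held neither. TGANTCA, a letter pattern of AP-1 motifs, was found in 2.78% of the keratin promoters and 7.93% of all promoters, and the 1 keratin promoter that held it was that of Krt13. Krt4, Krt6b, Krt15 and Krt19 had no entry.

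The comparison asked which keratins differ between corneas of the 2 strains. Of the 53 genes, 33 reached a mean of 0 on the rlog scale and were tested, 8 lay below that level and 12 were listed at 0 in all 8 corneas. Limma, read at adjusted p-values up to 0.01, called 8 keratins, of which 7 were lower and 1 was higher in BALB/cN. Those lower were Krt15, Krt13, Krt75, Krt4, Krt19, Krt7 and Krt6b, and the one higher was Krt90. This was 24.2% of the tested keratins, beside 5.74% of all 25402 genes tested. By direction it was 21.2% lower beside 2.91% of all genes, and 3.03% higher beside 2.83%. The median difference was -0.03 over the 33 keratins and 0.01 over all tested genes, on the rlog scale, BALB/cN minus C57BL/6N. The values of the strains did not overlap, on the rlog scale and in normalized reads, for 13 of the 33 keratins, or 39.4%, beside 17.7% of all genes. For Krt1, Krt78 and Krt84, which are among the 13 and were not called, the reads before scaling to depth overlapped. An exact two-sided permutation test of 4 against 4 rlog values gave p = 0.0286 for each of the 13, the smallest p it can give. Groups that do not overlap always give this p-value, so it adds no support beyond the lack of overlap.

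When p-values were rescaled to an empirical null with a standard deviation of 1.68, limma called none of the 25402 genes, and 10 of the 33 keratins and 1690 of all genes had a rescaled p-value under 0.05 before adjustment. With C57BL/6N corneas 1 and 2 only, 4 keratins were called lower (Krt13, Krt15, Krt19 and Krt75) and Krt90 higher; with corneas 3 and 4 only, all 7 were called lower and Krt90 higher.

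**Figure D1:**
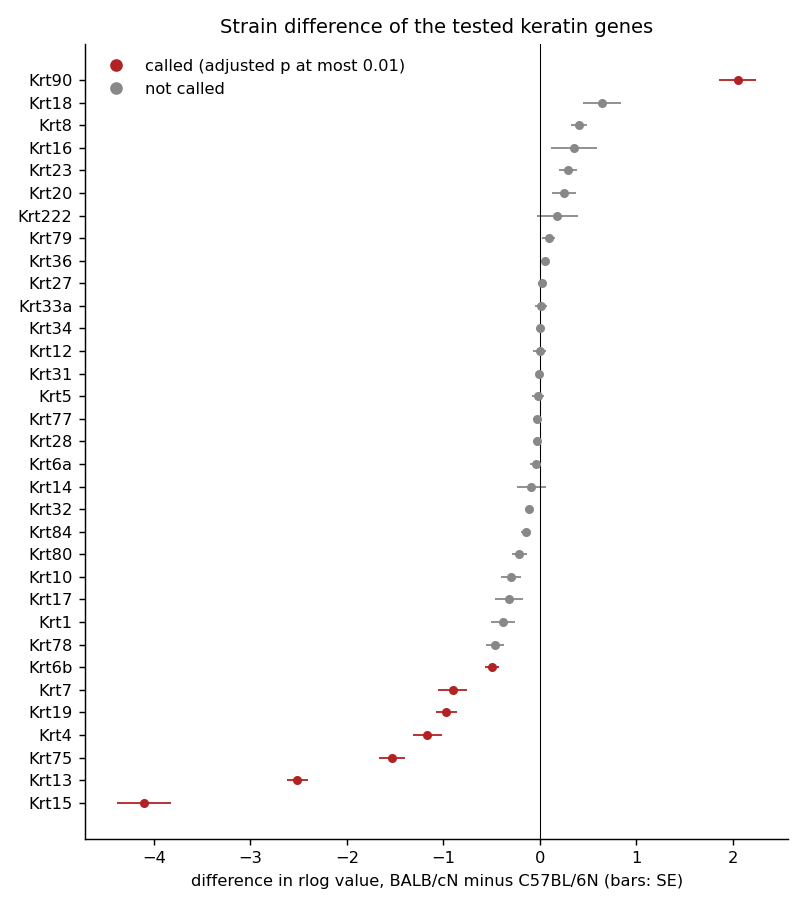
Difference in rlog value, BALB/cN minus C57BL/6N (log2 scale), for the 33 tested keratins, with the standard error from limma as a bar and called genes in red. Krt15 lies lowest at -4.10 and Krt90 highest at 2.05, and Krt12 lies at -0.0024.

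Krt12 and Krt5, the pair of the corneal epithelium in mouse, dominated the keratin reads in both strains and did not pass the test. Krt12 had rlog values of 19.61, 19.84, 19.70 and 19.68 in BALB/cN and 19.60, 19.64, 19.85 and 19.75 in C57BL/6N. Its difference was -0.0024 ± 0.066 (SE), with a 95% interval of -0.15 to 0.14 (limma, adjusted p = 0.989). The groups overlapped throughout.

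Krt5 had rlog values of 18.75, 18.98, 18.94 and 18.80 in BALB/cN and 18.80, 18.82, 18.96 and 18.97 in C57BL/6N, a difference of -0.02 ± 0.06 (SE) with an interval of -0.17 to 0.13. All keratins together took 3.78% to 4.46% of the reads in BALB/cN and 3.76% to 4.38% in C57BL/6N, and Krt12 alone 2.26% to 2.68% and 2.12% to 2.59%. Per kb of exon, Krt12 stood at 1.98 to 2.20 times Krt5 in BALB/cN and 2.01 to 2.22 times in C57BL/6N. The antisense gene A830036E02Rik overlaps Krt12 and holds 42.0% of the 50-base stretches of its transcript. It had 3909 reads on average, and because the strand setting of the counting is not given, reads of both genes cannot be told apart.

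On the scale of normalized reads per kb, the order of the leading keratins was the same down to the fourth place in both strains: Krt12, Krt5, Krt6a and Krt6b. Below them the order differed. Krt13 was the fifth in C57BL/6N at 8768 ± 1481 (SD, n = 4) and the eighth in BALB/cN at 858 ± 122. Krt15 was at place 8 in C57BL/6N and place 16 in BALB/cN, and Krt90 at place 15 and place 9. Krt14 was at 1842 ± 237 in C57BL/6N and 1743 ± 491 in BALB/cN.

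The rest of the type I keratins, without Krt12, had another makeup in each strain, in shares of their summed reads per kb. Krt13 made up 60.4% to 66.4% in C57BL/6N and 17.8% to 32.4% in BALB/cN. Krt15 made up 11.9% to 18.6% in C57BL/6N and 0.550% to 2.47% in BALB/cN. Krt14 made up 11.7% to 14.8% in C57BL/6N and 40.8% to 57.1% in BALB/cN. Summed over type I without Krt12, there were 13824 ± 2353 normalized reads per kb in C57BL/6N and 3439 ± 574 in BALB/cN (SD, n = 4). Type I stood over type II by 1.71 to 1.90 times in C57BL/6N and 1.70 to 1.89 times in BALB/cN, and Krt12 alone held 96.5% to 98.0% and 99.1% to 99.4% of type I.

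**Figure D2:**
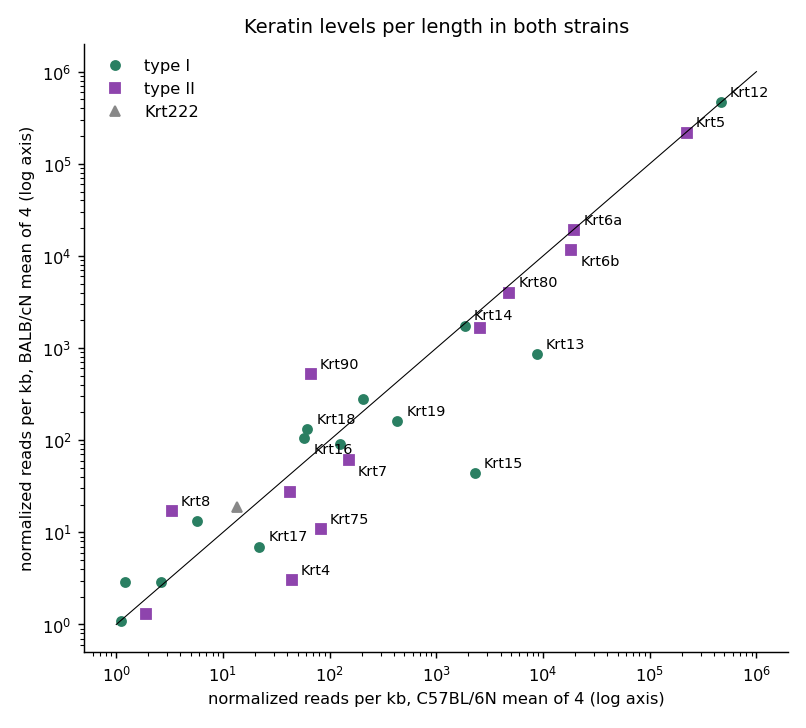
Normalized reads per kb of exon in C57BL/6N (horizontal) and BALB/cN (vertical), means of 4 corneas on log axes, for tested keratins with at least 1 such read in both strains. Circles are type I, squares type II and the triangle Krt222. Krt12, Krt5 and Krt6a lie on the line of equal levels, Krt15, Krt13, Krt4 and Krt75 below it and Krt90 above it.

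Of the basal keratins, Krt15 was lower in BALB/cN, and Krt5 and Krt14 did not pass the test. Krt15 had 55, 36, 63 and 176 reads in BALB/cN and 4947, 4460, 1748 and 4259 reads in C57BL/6N. The lowest C57BL/6N cornea lay far above the highest BALB/cN cornea. Its rlog value was 7.24 ± 0.53 in BALB/cN and 11.34 ± 0.44 in C57BL/6N (SD, n = 4), a difference of -4.10 ± 0.28 (SE, limma, adjusted p = 1.5e-05). On the scale of reads, limma with voom gave a log2 ratio of -5.99 ± 0.61 (SE), or 63.5-fold.

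Krt14, the basal partner of Krt5, had 2276, 3259, 4155 and 3660 reads in BALB/cN and 3680, 3265, 2158 and 3037 reads in C57BL/6N. The groups overlapped, and the rlog difference was -0.09 with a 95% interval of -0.42 to 0.25 (limma, adjusted p = 0.771). Krt15 thus stood at 0.0111 to 0.0481 reads per read of Krt14 in BALB/cN and at 0.81 to 1.40 in C57BL/6N. Krt15 is also known as a limbal keratin. Of 6 non-keratin limbal markers, 5 were tested and Abcb5 was listed at 0. Limma called none (3 had an unadjusted p-value under 0.05, and voom called none). The 5 went both ways, with 2 higher and 3 lower in BALB/cN. Ifitm3 had 3499 to 6689 reads in BALB/cN and 118 to 1589 in C57BL/6N. It did not pass the threshold (difference 2.32, limma, adjusted p = 0.0241). The other differences were -0.36 for Gpha2, -0.29 for Abcg2, -0.10 for Lrig1 and 0.0071 for Trp63. Gpha2 had 67 to 164 reads in BALB/cN and 45 to 541 in C57BL/6N. The mean of the 5 was up to 11.27 in BALB/cN and 10.46 to 11.24 in C57BL/6N on the rlog scale, with overlap, and Krt15 was called with C57BL/6N corneas 1 and 2 only and with corneas 3 and 4 only.

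Both mucosal keratins were lower in BALB/cN. Krt13 had rlog values of 11.11, 11.10, 10.88 and 11.22 in BALB/cN and 13.66, 13.58, 13.32 and 13.80 in C57BL/6N. The groups were far apart. The difference was -2.51 ± 0.11 (SE, limma, adjusted p = 6.9e-07), and the log2 ratio of reads was -3.35 ± 0.15 (voom), or 10.2-fold.

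Krt4, its type II partner, had 0, 2, 1 and 24 reads in BALB/cN and 116, 65, 63 and 110 reads in C57BL/6N. BALB/cN cornea 4 stood above the other corneas of its strain and below every C57BL/6N cornea. The rlog difference was -1.17 ± 0.15 (SE, limma, adjusted p = 0.00088). In normalized reads the means were 6.49 ± 11.2 in BALB/cN and 94.8 ± 26.7 in C57BL/6N (SD, n = 4), a ratio of 14.6. Without BALB/cN cornea 4, that C57BL/6N mean was at least 35.5-fold higher, computed against a floor of 3 reads in each remaining BALB/cN cornea. Krt4 was not called with C57BL/6N corneas 1 and 2 only (adjusted p = 0.0145).

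Krt4 and Krt13 are known from conjunctiva, and non-keratin conjunctival markers were read beside them. Of 8 markers, 7 were tested and Tff2 was listed at 0. Limma called 2 lower in BALB/cN, Muc4 (difference -0.48) and Gsto1 (-0.98), both also abundant in cornea here. This was 28.6% of the 7, beside 2.91% of all genes called lower. Muc5ac, the goblet cell mucin, had 34 to 555 reads in BALB/cN and 0 to 4 reads in C57BL/6N, and did not pass the threshold (difference 2.19, adjusted p = 0.0225). The mean of the 7 was 7.94 to 8.38 in BALB/cN and 8.05 to 8.18 in C57BL/6N on the rlog scale, so the groups overlapped. The part of conjunctival tissue in the keratin differences was not tested.

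**Figure D3:**
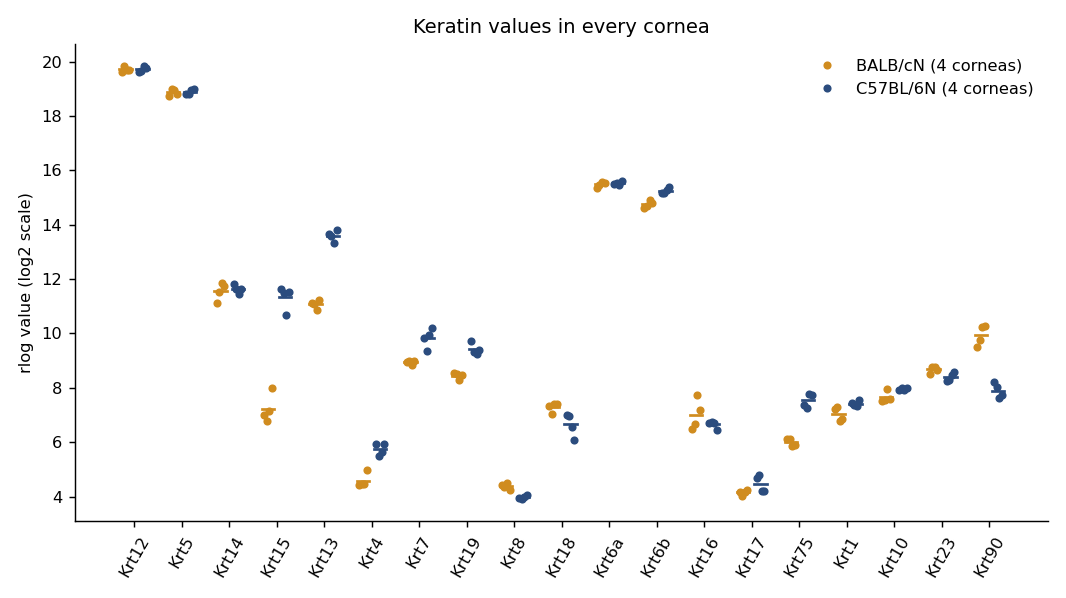
rlog value (log2 scale) of 19 keratins in each of the 4 BALB/cN and 4 C57BL/6N corneas, with group means as lines. Krt15, Krt13, Krt4, Krt7, Krt19, Krt6b and Krt75 are lower in every BALB/cN cornea than in any C57BL/6N cornea, Krt90, Krt8 and Krt18 are higher, and Krt12, Krt5, Krt14 and Krt6a overlap.

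The keratins of simple epithelia were split. Krt19 and Krt7 were lower in BALB/cN, while Krt8, Krt18 and Krt20 had positive differences that did not pass the test. Krt19, a small type I keratin that lacks most of the tail domain, had 380, 356, 268 and 309 reads in BALB/cN and 1029, 709, 533 and 722 reads in C57BL/6N. The groups did not overlap. Its rlog difference was -0.97 ± 0.11 (SE, limma, adjusted p = 0.00034), and its log2 ratio of reads was -1.41 ± 0.17 (voom).

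Krt7, a type II keratin of glands and ducts, had 507, 518, 405 and 455 reads in BALB/cN and 1009, 658, 906 and 1375 reads in C57BL/6N. The C57BL/6N values spread more, and the groups did not overlap. The rlog difference was -0.90 ± 0.15 (SE, limma, adjusted p = 0.0042). The call was lost when any 1 BALB/cN cornea or C57BL/6N cornea 1 or 3 was left out, with differences of -0.87 to -0.92 and adjusted p-values of 0.0119 to 0.0175. It was also lost with C57BL/6N corneas 1 and 2 only (difference -0.66, adjusted p = 0.0228), and with the mean of 10 non-keratin corneal epithelium markers as a covariate (-0.65, adjusted p = 0.0474).

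Krt8 had 44, 35, 45 and 22 reads in BALB/cN and 5, 3, 5 and 11 reads in C57BL/6N. Krt18, its partner, had 223, 153, 227 and 223 reads in BALB/cN and 129, 124, 55 and 28 reads in C57BL/6N. For both, every BALB/cN cornea had more reads than any C57BL/6N cornea. The rlog difference was 0.40 ± 0.08 for Krt8 (SE, limma, adjusted p = 0.0111) and 0.64 ± 0.20 for Krt18 (adjusted p = 0.0729), with 95% intervals of 0.22 to 0.59 and 0.20 to 1.09. Of the 50-base stretches of Krt8, 26.9% are shared with the pseudogene Krt8-ps, so its count is uncertain; Krt8-ps had 6.86 ± 4.62 normalized reads in BALB/cN and 7.03 ± 3.60 in C57BL/6N (SD, n = 4).

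Krt18 and 3 keratins with few reads moved with the C57BL/6N pairs that differed in stromal markers. Krt18 had 129 and 124 reads in C57BL/6N corneas 1 and 2 and 55 and 28 in corneas 3 and 4. Krt20, a keratin of the intestinal epithelium, had 10 and 34 reads in the first pair and 0 in both corneas of the second. In BALB/cN it had 22 to 36 reads, with 27 in cornea 2, where the stromal mean was lowest. Krt222 had 72 reads in both corneas of the first pair and 14 and 16 in the second, and in BALB/cN it was lowest, with 24 reads, in the cornea with the lowest stromal mean. Krt17, a stress keratin, had 48 and 61 reads in the first pair and 11 and 12 in the second, beside 4 to 16 in BALB/cN. Limma called none of the 4 (1 of them, Krt18, had an unadjusted p-value under 0.05, and voom called none). With the stromal mean as a covariate, Krt18 (adjusted p = 0.00857) and Krt17 (adjusted p = 0.00495) were called, in the same directions. With the corneal epithelium mean as a covariate neither was, and the Krt18 difference was 0.14 (adjusted p = 0.696) and that of Krt17 -0.66 (adjusted p = 0.0135). Neither was called with a C57BL/6N pair alone. With corneas 1 and 2 only, the differences were 0.31 (adjusted p = 0.227) for Krt18 and -0.59 (adjusted p = 0.0142) for Krt17. With corneas 3 and 4 only they were 0.97 (adjusted p = 0.0107) and -0.05 (adjusted p = 0.746). Called keratins differed between the pairs too. Krt90 had 231 and 189 reads in C57BL/6N corneas 1 and 2 and 91 and 126 in corneas 3 and 4. Krt75 went the other way, with 212 and 198 reads beside 272 and 308. Krt90 and Krt75 were called with either pair alone.

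**Figure D4:**
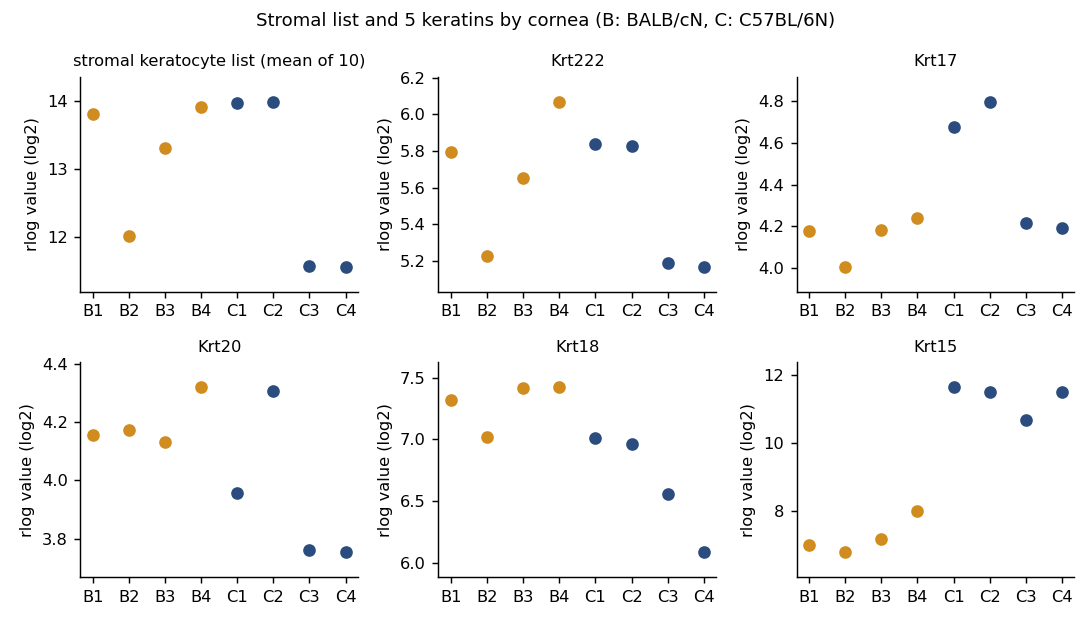
Mean rlog value of 10 stromal keratocyte markers and rlog values of 5 keratins in each cornea (B1 to B4 BALB/cN, C1 to C4 C57BL/6N; log2 scale, each panel on its own axis). Krt222 is high and low in the same corneas as the stromal markers, while Krt15 separates by strain.

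Of the stress and hair companion keratins, Krt75 and Krt6b were lower in BALB/cN. Krt75, known from the companion layer of the hair follicle, had 50, 49, 28 and 30 reads in BALB/cN and 212, 198, 272 and 308 reads in C57BL/6N. The groups did not overlap. The rlog difference was -1.53 ± 0.13 (SE, limma, adjusted p = 7.4e-05), and the log2 ratio of reads was -2.88 ± 0.34 (voom), or 7.39-fold.

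Krt6b and Krt6a are near-identical keratins induced by wounding. Krt6b had rlog values of 14.61, 14.70, 14.91 and 14.78 in BALB/cN and 15.18, 15.15, 15.27 and 15.39 in C57BL/6N, and the groups did not overlap. Its difference was -0.50 ± 0.07 (SE, limma, adjusted p = 0.0023). Krt6a had rlog values of 15.35, 15.47, 15.58 and 15.53 in BALB/cN and 15.49, 15.55, 15.45 and 15.62 in C57BL/6N, which overlapped, with a difference of -0.04 ± 0.06 and a 95% interval of -0.18 to 0.09. Krt6b shares 44.5% of its 50-base stretches with Krt6a, so the split of reads between them is uncertain. The summed normalized reads of both were lower in BALB/cN by a log2 difference of -0.30, with values of 15.95 to 16.29 in BALB/cN and 16.37 to 16.58 in C57BL/6N (exact permutation test, p = 0.0286). The ratio of Krt6b to Krt6a reads was 0.55 to 0.608 in BALB/cN and 0.78 to 0.943 in C57BL/6N. The Krt6b call was lost with the corneal epithelium markers as a covariate (difference -0.39, adjusted p = 0.021), with C57BL/6N corneas 1 and 2 only (-0.41, adjusted p = 0.025) and with centring on the median (-0.57, adjusted p = 0.0108).

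Krt16, the stress partner of Krt6, had 80, 103, 344 and 182 reads in BALB/cN and 94, 100, 77 and 64 in C57BL/6N. The groups overlapped, BALB/cN corneas 3 and 4 were the highest, and the rlog difference of 0.35 ± 0.24 did not pass the test (limma, adjusted p = 0.418). Krt16 shares 37.6% of its stretches with other genes, and 25.2% with Gm11597, so its count is uncertain.

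Krt90, a type II keratin, was the one higher in BALB/cN. It had 982, 1215, 1762 and 1775 reads in BALB/cN and 231, 189, 91 and 126 reads in C57BL/6N. The groups did not overlap. The rlog difference was 2.05 ± 0.20 (SE, limma, adjusted p = 0.00013), and the log2 ratio of reads was 2.93 ± 0.37 (voom), or 7.62-fold. Krt90 lies at chr15:101552356-101562950 and Krt75 at chr15:101563345-101573904 on the same strand (GRCm38), 394 bases apart with no annotated gene between them. The ratio of Krt90 to Krt75 reads was 19.6 to 62.9 in BALB/cN and 0.335 to 1.09 in C57BL/6N.

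The 3 type I keratins called lower were also neighbours. Krt13 at chr11:100117327-100121566, Krt15 at chr11:100131758-100135928 and Krt19 at chr11:100140810-100148665 lie in this order on the minus strand, 10191 and 4881 bases apart, with no annotated gene between them. The other 15 tested keratins of chromosome 11 were not called. On chromosome 15 the calls were spread along the cluster from Krt7 to Krt4. Among the 7 other genes tested within the span of the chromosome 11 keratins none was called, and of 7 such genes on chromosome 15 limma called 2, the predicted gene Gm5478 and the pseudogene Krt74, which were named after their values were seen. Of all tested genes 5.74% were called, and with 7 genes in each span these counts are not read as a result about the clusters. Krt74 had 0, 3, 0 and 1 reads in BALB/cN and 31, 20, 40 and 40 reads in C57BL/6N, at least 13.2-fold higher in C57BL/6N against a floor of 3 reads in each BALB/cN cornea. Gm5478 had 277, 472, 401 and 380 reads in BALB/cN and 132, 51, 57 and 69 reads in C57BL/6N.

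**Figure D5:**
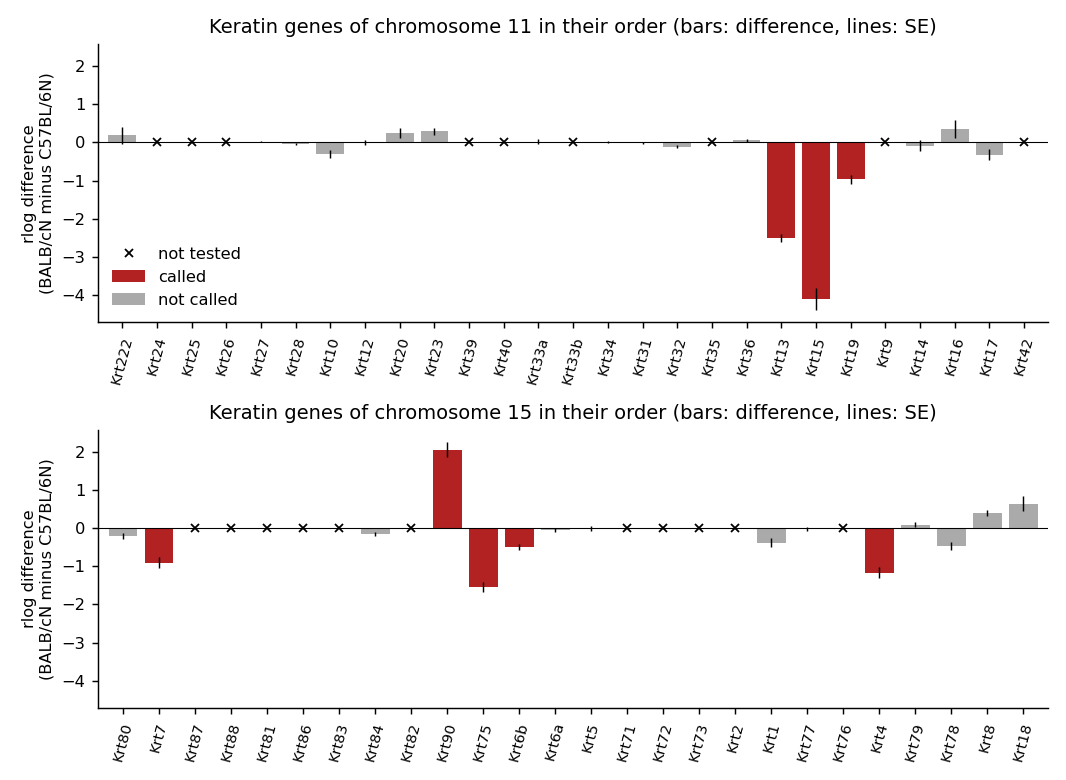
Keratins of chromosomes 11 and 15 in the order of their start positions, with the rlog difference (BALB/cN minus C57BL/6N, log2 scale) as a bar and its standard error as a line; called genes are red and untested genes are crosses. The 3 called genes of chromosome 11 stand side by side, and Krt90 and Krt75 stand side by side with opposite signs.

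No epidermal suprabasal keratin was called, of 3 tested (2 had an unadjusted p-value under 0.05 in limma, and voom called none). Krt1 had 173, 188, 87 and 95 reads in BALB/cN and 187, 179, 136 and 205 in C57BL/6N, a difference of -0.38 ± 0.13 on the rlog scale (limma, adjusted p = 0.0965). Krt10, its partner in the epidermis, had 190, 190, 286 and 177 reads in BALB/cN and 253, 272, 200 and 260 in C57BL/6N, a difference of -0.30 ± 0.10 (adjusted p = 0.114). Krt77 had a difference of -0.03. Krt2 was below the level for testing and Krt9 was listed at 0.

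Keratins of the hair shaft and the inner root sheath had few or no reads; Krt75, of the companion layer, was counted with the stress keratins above. Of these 22 hair keratins, 8 were tested and 9 were listed at 0, and limma called none (2 had an unadjusted p-value under 0.05, and voom called none). The highest mean was that of Krt84, with 6.0 normalized reads and a difference of -0.15. Krt84 had 1, 1, 6 and 0 reads in BALB/cN and 6, 10, 6 and 16 in C57BL/6N, so corneas of both strains had 6. Krt32 had no read in BALB/cN and 9, 0, 7 and 6 reads in C57BL/6N, where cornea 2 was at 0 like BALB/cN. The other differences were -0.03 for Krt28, 0.02 for Krt27, -0.01 for Krt31, -0.0014 for Krt34, 0.01 for Krt33a and 0.05 for Krt36. Of 8 non-keratin markers of hair and eyelid skin, 4 were tested, none was called, no gene had an unadjusted p-value under 0.05, and Krtap3-1, Krtap5-1 and Sprr1b were listed at 0.

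Among the remaining keratins, Krt80 and Krt78, both type II keratins, had rlog differences of -0.21 ± 0.08 and -0.47 ± 0.10 (SE, limma, adjusted p = 0.124 and 0.0124), and for Krt78 the groups did not overlap. Krt23 had 428, 548, 499 and 434 reads in BALB/cN and 269, 282, 276 and 361 in C57BL/6N, a difference of 0.29 ± 0.09 (limma, adjusted p = 0.0894) whose rlog values overlapped. It was called with the stromal mean as a covariate (0.34, adjusted p = 0.0052) and with the corneal epithelium mean (0.51, adjusted p = 0.00592), and was not called with C57BL/6N corneas 1 and 2 only (0.42, adjusted p = 0.0365) or with corneas 3 and 4 only (0.16, adjusted p = 0.309). Krt79 had 19 reads in BALB/cN cornea 4 and 0 or 1 in every other cornea. Krt24, Krt76, Krt35, Krt86, Krt87, Krt71 and Krt72 averaged under 1 normalized read and were not tested, and Krt25, Krt26, Krt33b, Krt39, Krt40, Krt42, Krt73, Krt81, Krt82, Krt83 and Krt88 were listed at 0.

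Keratin filaments are tied to cell contacts by desmosome and hemidesmosome proteins. The list of 21 linker genes held such proteins and other keratin-binding proteins, Flg and Tchp among them. All 21 were tested, and limma called 3 lower in BALB/cN and none higher (3 had a positive difference with an unadjusted p-value under 0.05). This was 14.3% lower, beside 2.91% of all genes. They were the desmosomal cadherins Dsg1a (difference -0.68 ± 0.12, SE) and Dsg2 (-0.45 ± 0.08) and the hemidesmosome integrin Itga6 (-0.47 ± 0.07). Dsg1a has close copies in the genome, so its count is uncertain. The median difference of the list was -0.20, beside 0.01 over all genes, with 17 of 21 lower. The count was 0 with centring on the median and 1 without BALB/cN cornea 1, 3 or 4 or without C57BL/6N cornea 3. The mean of 10 corneal epithelium markers, of which Dsg1a is one, was 15.20 to 15.37 in BALB/cN and 15.32 to 15.50 in C57BL/6N on the rlog scale, its median difference was -0.12, and its part in the linker differences was not tested. With that mean as a covariate, Krt15, Krt13, Krt75, Krt19, Krt4 and Krt90 kept their calls (adjusted p = 5.6e-06 to 0.00601).

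Of 20 epithelial regulators, among them Pax6, Klf4 and Trp63, limma called 1, Sox9, a factor known from the hair follicle and the limbus. At 5% of the list beside 5.74% of all genes, the count was near the background. Sox9 had rlog values of 11.86, 11.94, 12.05 and 12.03 in BALB/cN and 11.32, 11.27, 11.28 and 11.24 in C57BL/6N, with no overlap and a difference of 0.69 ± 0.05 (SE, limma, adjusted p = 3.6e-05). The median of the list was -0.04. Of 15 other intermediate filament genes, such as vimentin and the lamins, limma called none (4 had an unadjusted p-value under 0.05, and voom called none), with a median of 0.05.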

How the data were processed

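Strand-specific libraries were sequenced from the RNA of 8 corneas, 4 of each strain. The authors trimmed and filtered the reads, aligned them with TopHat2 2.1.1 to a pseudo-genome of each strain made from GRCm38, moved the alignments back to GRCm38, counted reads on the union of exons per gene with HTSeq 0.7.1 and transformed the counts with DESeq2. The deposited values are rlog values (log2 scale, decimal commas, library size accounted for), and 0 columns were left unused. Strand setting and handling of reads with several matches are not given in the sources used here.

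Reads per gene were recovered by inverting the transformation with constants that made the counts closest to whole. Of values with means from 1 to 1000 reads, 93.2% came out whole within 0.1, and 20.0% did so once a random fraction had been added. Above 5000 reads it was 24.8%, so rlog values are printed there for single corneas. Shares, ratios, folds, sums and levels per kb of such keratins still use the recovered counts, which are less exact there. Under 1 read no count is printed. PCR copies are not separate molecules, and the floors of reads cover counting error only. The intervals of rlog differences come from the limma fit and reflect the spread between the corneas of a strain. Chi-square per gene between corneas of a strain was 10.8 to 93.8, so no pair was as close as sampling noise.

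The strain comparison was fitted in limma 3.58.1 under R 4.3.3 (lmFit, eBayes with a variance trend) to the 25402 genes whose mean rlog was 0 or more, with Benjamini-Hochberg adjustment over all of them and calls at 0.01. Ratios of reads came from limma with voom on the recovered counts. For single genes, an exact permutation test, two-sided, was added (scipy 1.17.1). The fit and the recovery were tested on simulated data. Levels per length used the union of exons of GENCODE M21 (GRCm38). Same-numbered corneas did not vary together (correlations of deviations 0.31, -0.53, -0.20 and -0.45), so the number was not used as a block.

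The keratins and the lists of linkers, regulators, other filaments and markers of stroma, corneal epithelium, conjunctiva, lens, limbus and skin were chosen with earlier results of these data known. Named with values in every cornea were the called keratins and those of a set list (Krt1, Krt4, Krt5, Krt6a, Krt6b, Krt7, Krt8, Krt10, Krt12 to Krt19, Krt23 and Krt24, where tested), other tested keratins by their difference, and genes of the other lists where called. Alternatives were no variance trend, a robust fit, other filters, centring, quantile normalization, an empirical null, the replicate block, leaving out each cornea, a threshold of 0.05, marker means as covariates, voom, and another gene length. Fits with each C57BL/6N pair, the sum of Krt6a and Krt6b, and the reading of overlap on both scales were chosen after seeing the data.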

Additional observations from a re-analysis of the deposited data

Results flagged for a closer look

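In 8 of 66 groups of 4 corneas, formed from the 33 tested keratins and the 2 strains, 1 cornea lay far from the other corneas of its strain, judged by the share of the group's range that its gap took. By chance about 1 in 20 groups would be picked out, or 3.3 of 66. That number does not hold for keratins with few reads, where 1 read beside 0 gives a share near 1. For Krt15, C57BL/6N cornea 3 was lowest with 1748 reads beside 4259 to 4947 (share 0.849). For Krt4, BALB/cN cornea 4 was highest with 24 reads beside 0 to 2 (0.897). For Krt10, BALB/cN cornea 3 was highest with 286 reads beside 177 to 190 (0.9). For Krt16, C57BL/6N cornea 4 was lowest with 64 reads beside 77 to 100 (0.885). The others were keratins with few reads. Krt79 had 19 reads in BALB/cN cornea 4 beside 0 or 1 (0.936), and Krt84 had 6 reads in BALB/cN cornea 3 beside 0 or 1 (0.846). Krt27 had 2 reads in C57BL/6N cornea 1 beside 0 (0.987), and Krt28 had 1 read in BALB/cN cornea 3 beside 0 (0.989).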

How the results depend on the processing

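Of 419 comparisons of 19 single keratins with an alternative, 367 kept direction and side of the threshold, and 121 of 160 counts of called genes stayed within 1.5 times. Krt13, Krt15, Krt19, Krt75 and Krt90 were called under every alternative but the empirical null, under which adjusted p-values of the 8 called keratins were 0.194 to 0.626. With the replicate number as a block, Krt7 was not called (adjusted p = 0.0231), 6 keratins were lower and 1 higher, 280 of all genes were lower and 274 higher, and no linker was lower; the numbers do not pair the corneas.

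Keratins called higher, 1 as reported, were 2 without a variance trend, with a robust fit, with a mean of at least 10 reads, with the epithelium covariate and at 0.05, 4 with the stromal covariate and 0 with the empirical null. Keratins called lower were 0 with the empirical null and 4 with C57BL/6N corneas 1 and 2 only. Leaving out 1 cornea gave 6 to 8 lower and 1 to 2 higher (2 without BALB/cN cornea 4, with Krt8). For all genes (740 lower, 718 higher), counts were 0 and 0 with the empirical null, 1227 and 1241 with the stromal covariate, 409 and 436 with C57BL/6N corneas 1 and 2 only, and 1429 and 1413 at 0.05, and 413 were higher with median centring. Leaving out 1 cornea gave 468 to 608 lower, with the lowest counts without BALB/cN cornea 1, 3 or 4 or C57BL/6N cornea 4 (475, 487, 479 and 468), and 485 to 561 higher.

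Linkers called lower were 0 with median centring, 7 with the stromal covariate and 1 to 3 without 1 cornea, and 2 were higher with the stromal covariate. Other filaments lower were 1 with either covariate; higher were 2 with the stromal covariate and 0 to 1 without 1 cornea (1 without C57BL/6N cornea 1). Regulators were 2 lower with the stromal covariate and 2 higher with the epithelium covariate. The causes were not tested.

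Keratins with differences near 0 changed sign, none past the threshold. Krt12 was 0.121 with quantile normalization, 0.0379 and 0.156 with the stromal and epithelium covariates, 0.0857 with C57BL/6N corneas 1 and 2 only, and -0.0463 to 0.0436 without 1 cornea. Krt5 was 0.101, 0.0179, 0.146 and 0.0581 in the same order and -0.0579 to 0.0208 without 1 cornea. Krt6a was 0.024 with quantile normalization, 0.00336 with the epithelium covariate and -0.0772 to 0.000425 without 1 cornea. Krt14 was 0.00283 with C57BL/6N corneas 3 and 4 only and -0.187 to 0.0615 without 1 cornea. The Krt12 share of type I, the ratio of type I to type II, and the shares of Krt13, Krt14 and Krt15 in the rest of type I kept within 1 SD with the longest transcript or without 1 cornea. Depth limits the hair keratins, where few reads decide a value.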
